A study of Mus musculus with 9 samples.

Results

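The genes described here encode lysosomal hydrolases, lysosomal membrane proteins and the proteins that sort enzymes to the lysosome, measured in sorted mouse long-term hematopoietic stem cells (LT-HSCs). They were taken from a list of 49 gene symbols matched to the 47643 gene identifiers of the count table. All 49 had enough counts to be tested, among 18205 genes tested in all. By role they comprise 12 proteases, 13 glycosidases, 5 genes of sulfatases and their activation, 7 lipid enzymes and lipid-binding proteins, 1 phosphatase, 1 nuclease, 4 genes of mannose-6-phosphate sorting and 6 membrane proteins. The list was drawn up by function, with earlier results of these data known.

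The study asked what happens in the stem cell when class IA PI3-kinase is lost, and it was concerned with autophagy, whose final step takes place in the lysosome. All donors were of the C57BL/6 strain, and their whole bone marrow was transplanted into lethally irradiated B6.SJL recipients. TKO donors carried Pik3ca lox/lox, Pik3cb lox/lox, Pik3cd-/- and Mx1-Cre. δKO donors, the littermate controls, carried Pik3ca lox/lox, Pik3cb lox/lox and Pik3cd-/- without Mx1-Cre, and WT donors carried Mx1-Cre with no deleted or floxed Pik3 allele named. Every group received 2 injections of 250 μg pIpC given 48 hours apart, which induces the interferon-responsive Mx1-Cre transgene in many cell types and not in stem cells alone. Bone marrow was harvested 4 weeks later, cells of the 7 recipients of a group were pooled, and donor-derived Lin-cKit+Sca1+Flk2-CD48-CD150+ cells were sorted. Deletion of Pik3ca and Pik3cb and the presence of Cre cannot be told apart between TKO and δKO, and in δKO against WT the absence of Cre goes together with the loss of Pik3cd. TKO and WT both carried Cre.

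Most soluble lysosomal enzymes are made in the endoplasmic reticulum and receive a mannose-6-phosphate tag in the Golgi. The GlcNAc-1-phosphotransferase encoded by Gnptab and Gnptg begins the tag, the uncovering enzyme encoded by Nagpa completes it, and the mannose-6-phosphate receptors encoded by M6pr and Igf2r carry the tagged enzymes towards endosomes. Sulfatases need a further step, the conversion of an active-site cysteine by the product of Sumf1, while the heavily glycosylated proteins LAMP1 and LAMP2 line the lysosomal membrane. Many of these genes carry the sequence CACGTG near their start, the core of the element that the transcription factor TFEB and its relatives bind.

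The start regions of the genes were read from RefSeq promoter windows of 300 bases on build GRCm38.p6, which hold 250 bases before and 50 after each annotated start. Windows were listed for 43 of the 49 genes. Those not listed were Aga, Asah1, Ctsb, Ctsh, M6pr and Npc1. CACGTG, which reads the same on both strands, occurred in 16 of the 43 genes (37.2%) and in 8.09% of the 27025 genes with a window. The longer form TCACGTGA, which contains it and is also its own reverse complement, occurred in 6 of the 43 genes (14.0%) and in 1.12% of all genes. Of 39 other lysosomal and sorting genes, 26 had a window. CACGTG occurred in 7 of these 26 (26.9%) and TCACGTGA in 6 (23.1%), so neither is particular to the genes described here. By role, CACGTG was found in 5 of 10 proteases with a window, 4 of 12 glycosidases, 3 of 5 sulfatase genes, 2 of 3 sorting genes, 2 of 5 membrane proteins and in none of the 6 lipid genes or the phosphatase and nuclease. The 70 bases before the start are given for 4 genes lower in TKO than in δKO at an unadjusted p under 0.05 by edgeR (Igf2r, Nagpa, Sumf1 and Lamp1). They are also given for 3 genes that did not pass this threshold (Glb1, Sgsh and Arsa). It does not sort the genes by size of change, as the log2 fold change was −1.08 for Sgsh and −0.59 for Lamp1. Against WT, Sumf1 and Lamp1 did not pass it. The stretches are read 5′ to 3′ on the strand of the gene with CACGTG in capitals.
Igf2r, minus strand, chr17:12769707-12769776: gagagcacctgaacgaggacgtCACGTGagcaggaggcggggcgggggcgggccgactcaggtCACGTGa
Nagpa, minus strand, chr16:5204013-5204082: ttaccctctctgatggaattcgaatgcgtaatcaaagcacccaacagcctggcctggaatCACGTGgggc
Sumf1, minus strand, chr6:108185584-108185653: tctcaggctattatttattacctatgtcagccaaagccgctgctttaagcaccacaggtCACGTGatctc
Lamp1, plus strand, chr8:13159091-13159160: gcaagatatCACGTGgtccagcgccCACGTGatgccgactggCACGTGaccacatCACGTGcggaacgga
Glb1, plus strand, chr9:114401008-114401077: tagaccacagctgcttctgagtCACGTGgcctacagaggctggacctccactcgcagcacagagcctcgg
Sgsh, minus strand, chr11:119355511-119355580: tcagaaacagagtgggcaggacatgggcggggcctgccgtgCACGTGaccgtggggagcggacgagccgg
Arsa, minus strand, chr15:89477425-89477494: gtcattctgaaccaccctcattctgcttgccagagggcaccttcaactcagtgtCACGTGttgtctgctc
Lamp1 held 4 copies in this stretch and Igf2r held 2. Of the 16 genes with CACGTG, 4 were lower in TKO than in δKO at an unadjusted p under 0.05 and the median log2 fold change was −0.33. Of the 27 genes with a window but no CACGTG, 4 were lower and the median was −0.39. Of all genes tested, 5.56% were lower at that threshold. Igf2r, Lamp1, Nagpa and Sumf1 of the former class and Gusb and Neu1 of the latter had been displayed by the study for this comparison, which leaves none with CACGTG and Ctsc and Manba without it.

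Between 31300343 and 60386097 reads were counted on genes per library, with 3 libraries for each genotype, and 18180 to 22703 genes were detected. The genes described here took 0.262% to 0.379% of the counts of a library. The fewest genes were detected in δKO replicate 1 (18180) and in a δKO library whose number in the count table is not in the labels (18500), called the unnumbered δKO library. Libraries of one genotype differed in Xist by 107-fold to 166-fold, although cells of a group were pooled. The p-values measure the spread between these libraries, which may be partly technical. Pik3cb was at 25.5 to 33.9 CPM in TKO libraries and at 33.2 to 101 CPM in the others, so the ranges met, and Pik3ca overlapped between genotypes at 41.3 to 88.2 CPM. A gene-level count also holds reads outside a deleted part. All 12 LT-HSC marker genes were tested, and their levels summed to 1307 to 1571 CPM across WT libraries, 1321 to 2862 across δKO and 1925 to 2237 across TKO libraries. The 10 neutrophil genes summed to 5493 to 12845 CPM in WT, 285 to 12760.2 in δKO and 169.8 to 3358 in TKO. Of them, 5 (S100a8, S100a9, Ngp, Camp and Ltf) were lower in TKO than in WT at an unadjusted p under 0.05, beside 2.5% of all genes. None was lower in TKO than in δKO at that threshold. Of the 12 LT-HSC genes, 3 were higher in TKO than in WT at that threshold (1.68% of all genes). Against δKO, 2 of the LT-HSC genes were higher in TKO (4.6% of all genes), and none was lower in either comparison. The 12 monocyte and macrophage genes summed to 61.5 to 127 CPM in WT, 7.14 to 123 in δKO and 24.6 to 118 in TKO. The 8 of them tested had a median log2 fold change in TKO of −1.37 against WT and −0.37 against δKO. None of the 8 had an unadjusted p under 0.05. Across libraries, 8 dendritic genes summed to 15.4 to 148 CPM, 6 megakaryocyte genes to 166 to 569 and 6 erythroid genes to 3.06 to 109. The 8 lymphocyte genes summed to at most 17.6 CPM. Klk1 and Cd3e, of the dendritic and lymphocyte lists, had no count in any library. In bulk libraries such as these, fewer cells of one type and less RNA per cell cannot be told apart.

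Levels are given in CPM, read counts relative to a library total of 1000000 reads, adjusted with TMM factors, in the order of replicates 1, 2 and 3, with the unnumbered library last for δKO. Differences are log2 fold changes with their standard errors from edgeR's quasi-likelihood test, two-sided, fitted to all 9 libraries. Calls required over 2-fold change and a p-value under 0.05 after Benjamini-Hochberg adjustment across the 18205 genes.

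Divided by exonic length, the genes ran from 1.67 to 133 CPM per kb in WT LT-HSCs. Ctsd, an aspartic protease that degrades proteins in the acidic lumen, ranked first at 133 ± 26.4 CPM per kb (SD, n = 3). Lamp1 followed at 76.7 ± 9.16, Psap, the precursor of the saposins that present lipids to their hydrolases, at 49.1 ± 2.53, M6pr at 42.7 ± 11.0 and Cd63 at 34.2 ± 4.26. The spread of M6pr overlapped with those of Psap, Cd63 and Hexa (31.6 ± 5.34), whereas Psap and Cd63 did not overlap, and Ctsd and Lamp1 were each separated from the next gene by more than their SDs. The first 6 genes stood in the same order in all 3 genotypes. At the low end were Ctsf at 1.67 ± 0.139, Dnase2a at 1.73 ± 0.665 and Galc at 1.78 ± 0.178, whose spreads overlapped. Igf2r ranked 41st of 49 in WT, 39th in δKO and last in TKO, and Neu1 ranked 26th, 35th and 44th. Sumf1 ranked 32nd in WT, 18th in δKO and 40th in TKO.

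**Figure D1:**
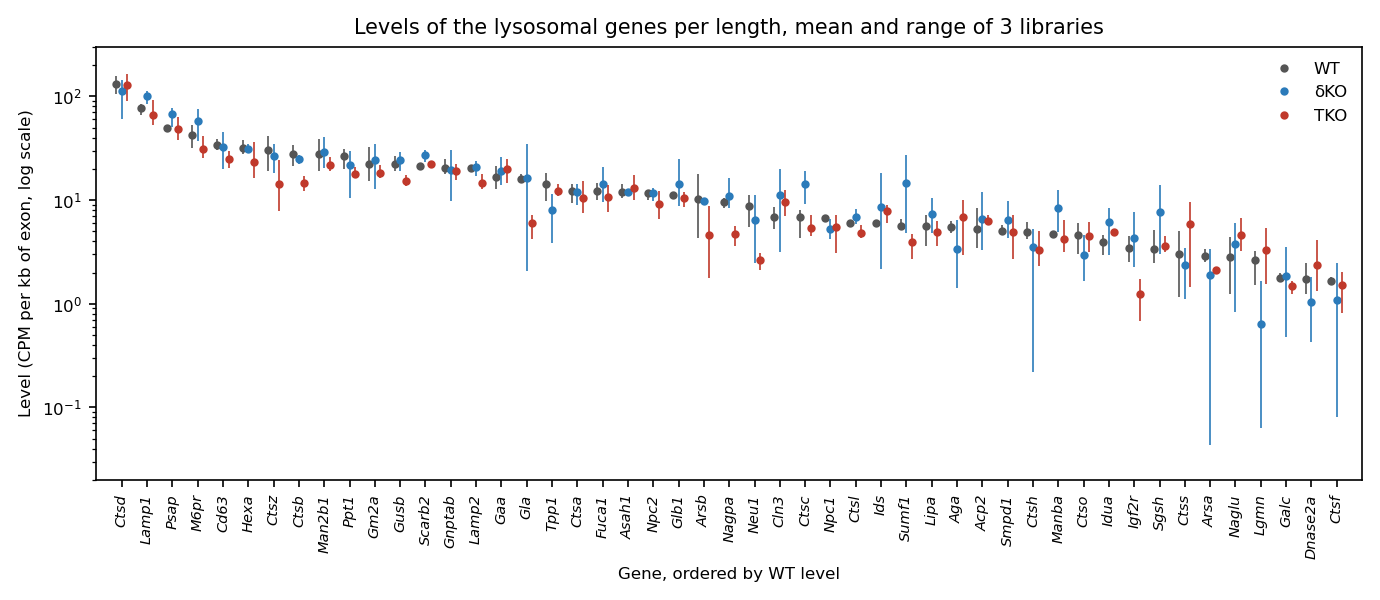
Level of each gene in CPM per kb of exon (log axis), ordered by its mean in WT libraries. Points are means and lines run from the lowest to the highest of 3 libraries per genotype. Ctsd, Lamp1, Psap, M6pr, Cd63 and Hexa lead in every genotype, and the longest lines are those of δKO for genes such as Arsa, Lgmn, Ctsf and Ctsh.

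Against δKO, 36 of the 49 genes were lower in TKO LT-HSCs by sign and 13 were higher, where 52.8% of all genes tested were lower and 47.2% higher. Among genes with an unadjusted p under 0.05, the sulfatase activator Sumf1 was 3.67-fold lower, the receptor gene Igf2r 3.48-fold, the protease Ctsc 2.63-fold, the sialidase Neu1 2.48-fold and the uncovering enzyme Nagpa 2.35-fold. By edgeR's quasi-likelihood test none of the 49 genes was called (0 of 18205 genes in all, 0% in either direction). At an unadjusted p under 0.05, 10 were lower (Ctsb, Ctsc, Gusb, Igf2r, Lamp1, M6pr, Manba, Nagpa, Neu1 and Sumf1) and 0 were higher, where 5.56% of all genes were lower and 4.6% higher at that threshold. Ctsb, Gusb, Igf2r, Lamp1, Nagpa, Neu1 and Sumf1 had been displayed by the study for this same comparison, so their direction is not independent evidence. Without them, 3 of 42 genes (Ctsc, M6pr and Manba) were lower. The median log2 fold change was −0.37 over the 49 genes and −0.30 over those 42, beside −0.06 over all genes, and the first of these became −0.19 when detected genes per library were added to the fit. With DESeq2 on all 9 libraries, Ctsc, Igf2r, Nagpa and Sumf1 were called lower, where 1.11% of all genes were called lower and 1.95% higher. All 4 calls were lost with DESeq2 on the TKO and δKO libraries alone (0 of 49 genes, beside 0.441% of all genes lower and 1.07% higher), where Ctsc had an adjusted p of 0.0881, Igf2r 0.159, Sumf1 0.175 and Nagpa 0.187. The 10 genes became 4 without TKO replicate 1 and 5 without TKO replicate 3 or without the unnumbered δKO library, and 2 when detected genes per library entered as a covariate.

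Against WT, 36 of the 49 genes were again lower in TKO by sign and 13 higher, where 48.8% of all genes were lower and 51.2% higher. The lowest values among those past an unadjusted p under 0.05 were those of Neu1, 3.32-fold lower, and Igf2r, 2.82-fold lower. None was called by edgeR, where 0.00549% of all genes were called higher and 0% lower. At an unadjusted p under 0.05, 5 genes were lower (Ctsb, Ctsz, Igf2r, Nagpa and Neu1) and 0 higher, beside 2.5% and 1.68% of all genes. Ctsb, Igf2r, Nagpa and Neu1 had been displayed by the study for TKO against δKO, with the same TKO libraries, and without the displayed genes Ctsz was the only one of 42 lower. DESeq2 called none of them on all 9 libraries (0.296% of all genes lower and 0.353% higher), and on the WT and TKO libraries alone it called 4 genes lower (Gla, Igf2r, Nagpa and Neu1), beside 1.61% of all genes lower and 1.43% higher, whereas Ctsb had an adjusted p of 0.0318 at less than 2-fold. The median was −0.22 over the 49 genes and 0.02 over all genes, and the former became −0.14 without WT replicate 1 and −0.38 without TKO replicate 2. The 5 genes became 2 without TKO replicate 1, 3 without TKO replicate 3, WT replicate 1 or WT replicate 2, 8 without TKO replicate 2 and 9 without δKO replicate 1. TKO libraries enter both of these comparisons. The sum of the neutrophil genes was also lower in TKO (169.8 to 3358 CPM) than in WT (5493 to 12845 CPM). That of the monocyte and macrophage genes was 24.6 to 118 CPM in TKO and 61.5 to 127 CPM in WT, so the ranges overlapped. The part of either sum in these values was not tested.

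In δKO against WT, with δKO libraries shared with the first comparison, 27 genes were higher by sign and 22 lower, where 52.8% of all genes were higher and 47.2% lower. None was called by edgeR (0.00549% of all genes higher, 0% lower) and none by DESeq2 on all 9 libraries (0.367% higher, 0.662% lower). At an unadjusted p under 0.05, Ctsc and Sumf1 were higher (3.65% of all genes) and none was lower (3.36%). The median was 0.04 over the 49 genes and 0.05 over all genes. The former became −0.064 without the unnumbered δKO library, 0.013 without WT replicate 3, 0.11 without δKO replicate 2 and 0.14 without WT replicate 1. The 2 genes became 7 without δKO replicate 2, 1 without WT replicate 2, δKO replicate 1 or the unnumbered δKO library, and 0 without WT replicate 3.

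**Figure D2:**
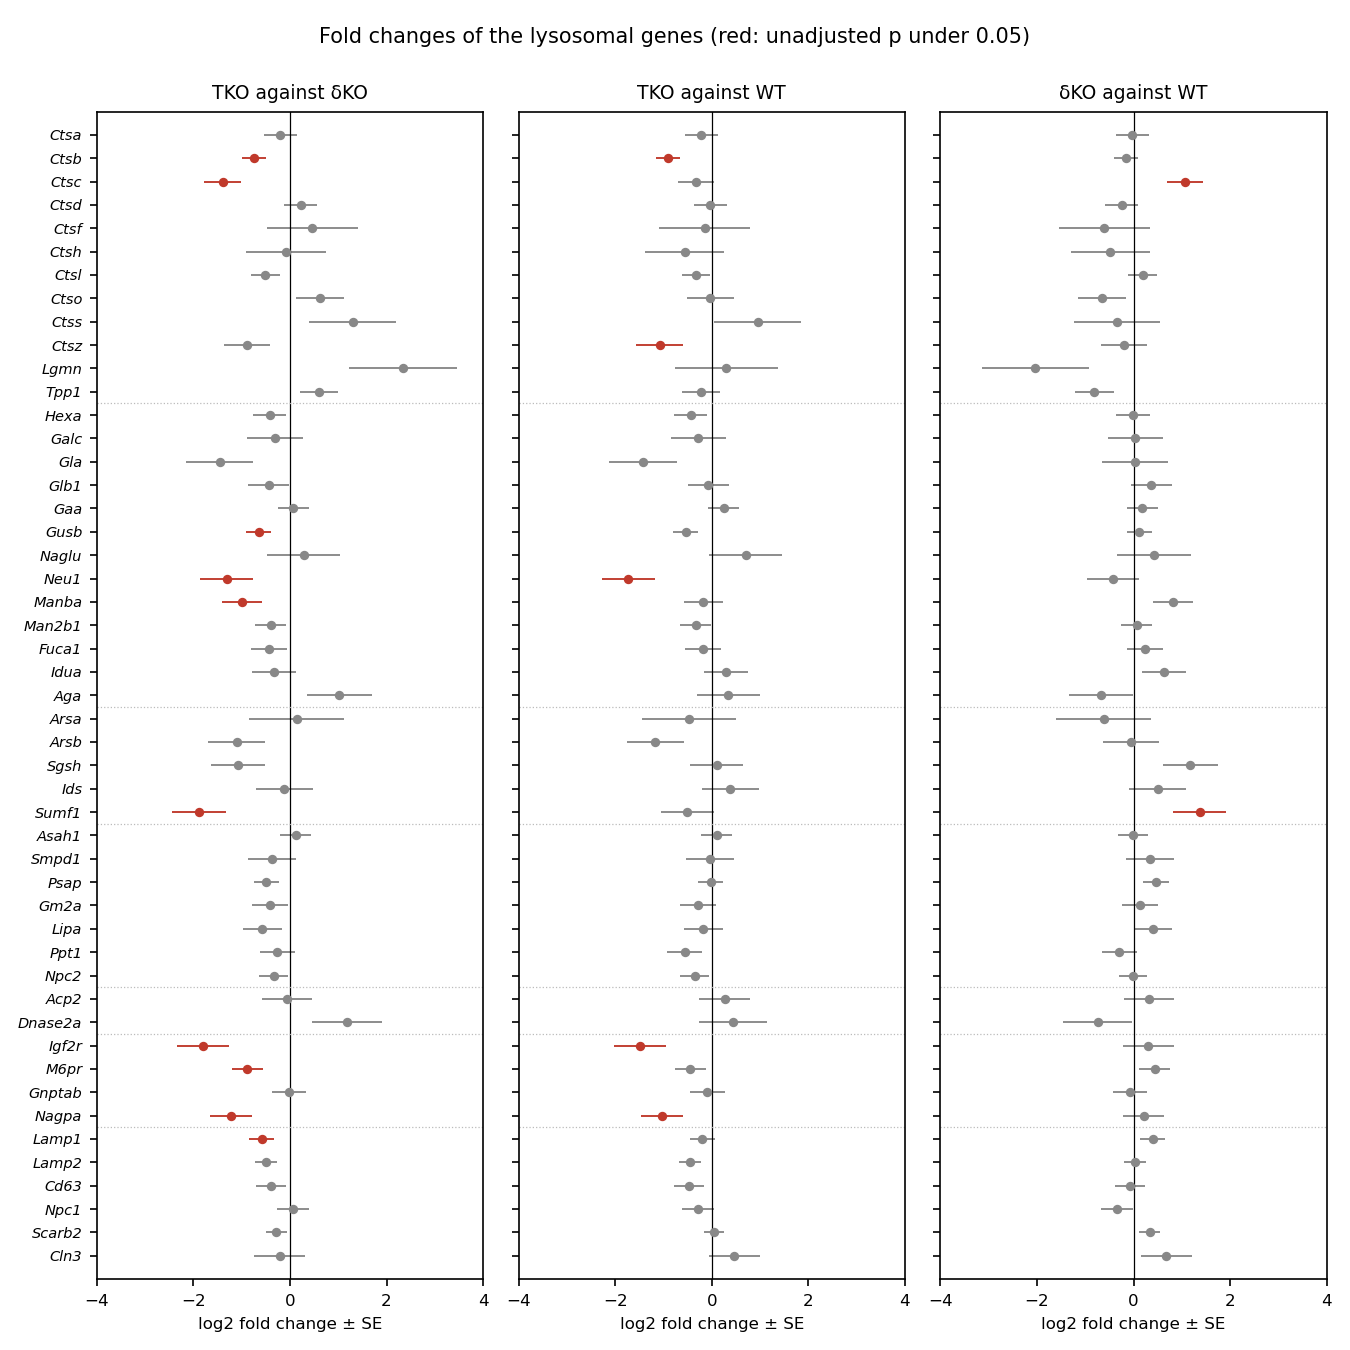
Log2 fold change of each of the 49 genes with its standard error in the 3 comparisons, grouped by role with dotted lines between groups. Red points have an unadjusted p under 0.05 in edgeR's test and none passed the adjusted threshold, and in both comparisons of TKO cells all red points, 10 and 5, lie below 0.

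Of the sorting genes, Igf2r encodes the cation-independent mannose-6-phosphate receptor, which also binds IGF2, and lies at chr17:12682406-12769664. It was at 31.6, 23.3 and 42.1 CPM in WT, at 28.1, 20.8 and 71.1 CPM in δKO and at 6.27, 11.9 and 16.3 CPM in TKO. All TKO libraries lay below all 6 control libraries, and the unnumbered δKO library was far above the rest. Its log2 fold change was −1.80 ± 0.540 (SE, unadjusted p = 0.00625, adjusted p = 0.465) against δKO, with an adjusted p of 0.0487 by DESeq2, and −1.49 ± 0.535 (unadjusted p = 0.0168, adjusted p = 1.00) against WT. Without the unnumbered δKO library the value against δKO was −1.09.

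Nagpa, at chr16:5195289-5204012, encodes the uncovering enzyme. It was at 24.6, 19.9 and 23.6 CPM in WT, 19.7, 20.0 and 38.9 CPM in δKO and 11.5, 13.3 and 8.63 CPM in TKO. Again the TKO libraries did not overlap with the controls. By edgeR the log2 fold change was −1.23 ± 0.435 against δKO (unadjusted p = 0.0158, adjusted p = 0.465, and 0.0351 by DESeq2) and −1.02 ± 0.433 against WT (unadjusted p = 0.0365, adjusted p = 1.00). Gnptab, whose enzyme acts before it, was at 146, 108 and 104 CPM in WT, 57.7, 106 and 177 CPM in δKO and 113, 91.4 and 132 CPM in TKO, so the genotypes overlapped, and its log2 fold change was −0.02 against δKO with a 95% interval from −0.81 to 0.77.

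The cation-dependent receptor gene M6pr, at chr6:122308720-122317680, was at 224, 179 and 132 CPM in WT. It was at 255, 156 and 313 CPM in δKO and at 105, 171 and 116 CPM in TKO. TKO replicate 2 lay within the range of both controls. The log2 fold change was −0.88 ± 0.317 against δKO (unadjusted p = 0.0171, adjusted p = 0.465) and −0.44 ± 0.315 against WT (unadjusted p = 0.185). The former was −0.47 with genes detected as a covariate. A processed copy, M6pr-ps, held at most 15 counts in a library.

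**Figure D3:**
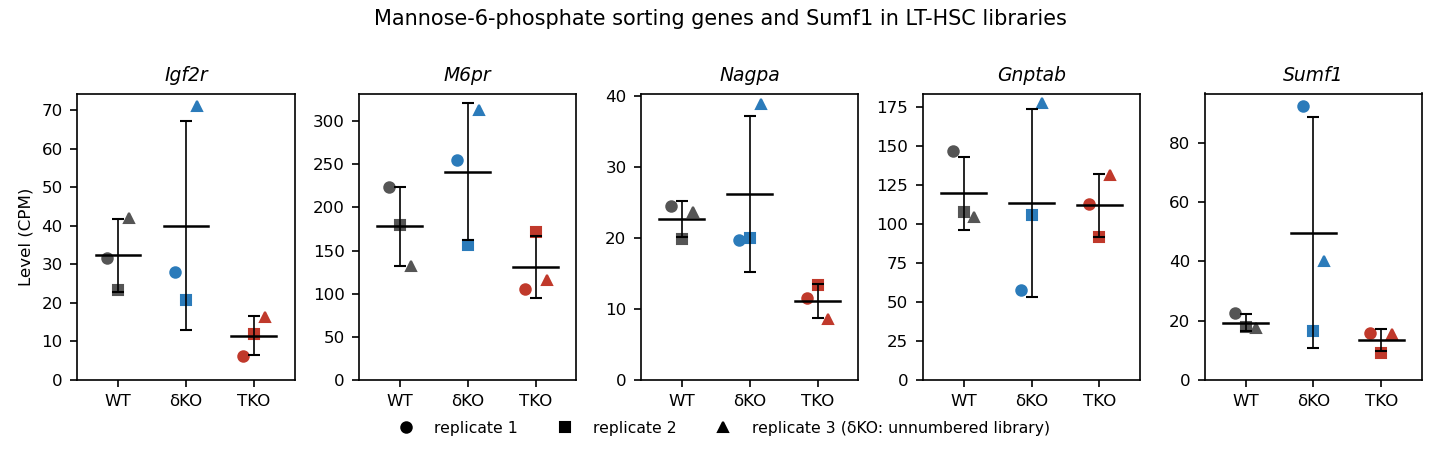
Level in CPM of the mannose-6-phosphate sorting genes and of Sumf1 in each library (points), with the mean (bar) and SD (error bars) of 3 libraries per genotype. TKO libraries lie below all control libraries for Igf2r, Nagpa and Sumf1, and within their range for Gnptab.

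Sumf1, at chr6:108107028-108185582, encodes the formylglycine-generating enzyme that activates sulfatases. It was at 22.5, 17.8 and 17.5 CPM in WT, 92.5, 16.4 and 40.3 CPM in δKO and 16.01, 9.13 and 15.5 CPM in TKO. TKO libraries lay below the controls, but by less than 1 CPM from δKO replicate 2, and the other δKO libraries were higher. Its log2 fold change was −1.88 ± 0.561 against δKO (unadjusted p = 0.00608, adjusted p = 0.465, and 0.0484 by DESeq2), −0.51 ± 0.544 against WT (unadjusted p = 0.369) and 1.37 ± 0.552 in δKO against WT (unadjusted p = 0.0297, adjusted p = 0.699). Without δKO replicate 1 the value of TKO against δKO was −1.07 and that of δKO against WT was 0.56, and with genes detected as a covariate they were −1.03 and 0.38.

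The sulfatases that Sumf1 acts on were measured as Arsa, Arsb, Sgsh and Ids, which cleave sulfated lipids and glycosaminoglycans, and none had an unadjusted p under 0.05 in any comparison. Arsb, the highest of this role per kb in WT, was at 107, 53.2 and 25.9 CPM in WT, 56.7, 58.1 and 63.6 CPM in δKO and 10.7, 52.6 and 19.6 CPM in TKO. Its TKO and δKO libraries did not overlap, whereas TKO and WT libraries did. By edgeR the log2 fold change was −1.11 ± 0.584 against δKO (unadjusted p = 0.0838), and 39.9% of its exonic bases also lie in exons of other annotated genes. The log2 fold changes of Arsa, Sgsh and Ids against δKO were 0.14, −1.08 and −0.11, and δKO replicate 1 was apart from the rest for all of them, at 0.160 CPM for Arsa, 61.6 for Sgsh and 92.9 for Ids.

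Among the 12 proteases, 6 were lower and 6 higher in TKO than in δKO by sign, with a median log2 fold change of 0.07. Ctsb, a cysteine cathepsin at chr14:63122462-63145923, was at 204, 167 and 130.2 CPM in WT, 146, 166 and 136 CPM in δKO and 74.0, 104 and 90.02 CPM in TKO. TKO libraries lay below all controls. The log2 fold change was −0.74 ± 0.249 against δKO (unadjusted p = 0.0121, adjusted p = 0.465) and −0.90 ± 0.250 against WT (unadjusted p = 0.00371, adjusted p = 1.00). With each library left out in turn it stayed between −0.87 and −0.62 against δKO and between −1.06 and −0.74 against WT.

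Ctsc, at chr7:88278085-88310888, encodes the dipeptidyl peptidase that activates the serine proteases of neutrophil granules. It was at 47.0, 46.4 and 24.9 CPM in WT, 84.4, 52.7 and 110.03 CPM in δKO and 26.1, 41.6 and 26.3 CPM in TKO. The δKO libraries stood above all others, and TKO overlapped with WT. Its log2 difference was −1.39 ± 0.382 in TKO against δKO (unadjusted p = 0.00353, adjusted p = 0.465, and 0.0350 by DESeq2), −0.33 ± 0.376 in TKO against WT (unadjusted p = 0.394) and 1.06 ± 0.379 in δKO against WT (unadjusted p = 0.0165, adjusted p = 0.699). The last of these was 0.40 with genes detected as a covariate. The δKO libraries with the highest Ctsc had the lowest and the highest sum of neutrophil genes among δKO libraries, 285 CPM in replicate 1 and 12760.2 CPM in the unnumbered library, and the part of neutrophil RNA in the values of Ctsc was not tested.

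Ctsz, which encodes a carboxypeptidase (chr2:174427493-174439039), was at 60.01, 43.0 and 27.2 CPM in WT, 37.9, 26.2 and 49.9 CPM in δKO and 15.5, 34.9 and 11.3 CPM in TKO. TKO replicate 2 overlapped with both controls. By edgeR the log2 fold change was −1.08 ± 0.482 against WT (unadjusted p = 0.0456, adjusted p = 1.00) and −0.89 ± 0.481 against δKO (unadjusted p = 0.0905). Without TKO replicate 2 the value against WT was −1.70.

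Ctsd, the protease with the highest level per kb in WT, was at 369.6, 246 and 319 CPM in WT, 143, 304 and 340.5 CPM in δKO and 322, 384 and 211 CPM in TKO. The genotypes overlapped, and the log2 fold change in TKO was 0.22 against δKO and −0.03 against WT, the latter with a 95% interval from −0.76 to 0.71. Ctsl, another cysteine cathepsin, was lower in all TKO libraries (27.7 to 37.4 CPM) than in all controls (37.8 to 52.7 CPM), with a log2 fold change of −0.51 against δKO (unadjusted p = 0.114). The other proteases, Ctsa, Ctsf, Ctsh, Ctso, Ctss, Lgmn and Tpp1, had unadjusted p-values of 0.0586 or above in every comparison. Lgmn, an asparaginyl endopeptidase, had the highest value of all 49 genes in TKO against δKO, 2.34 ± 1.11, with 0.439, 3.86 and 0.147 CPM in δKO, where δKO replicate 1 and the unnumbered library stood apart.

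**Figure D4:**
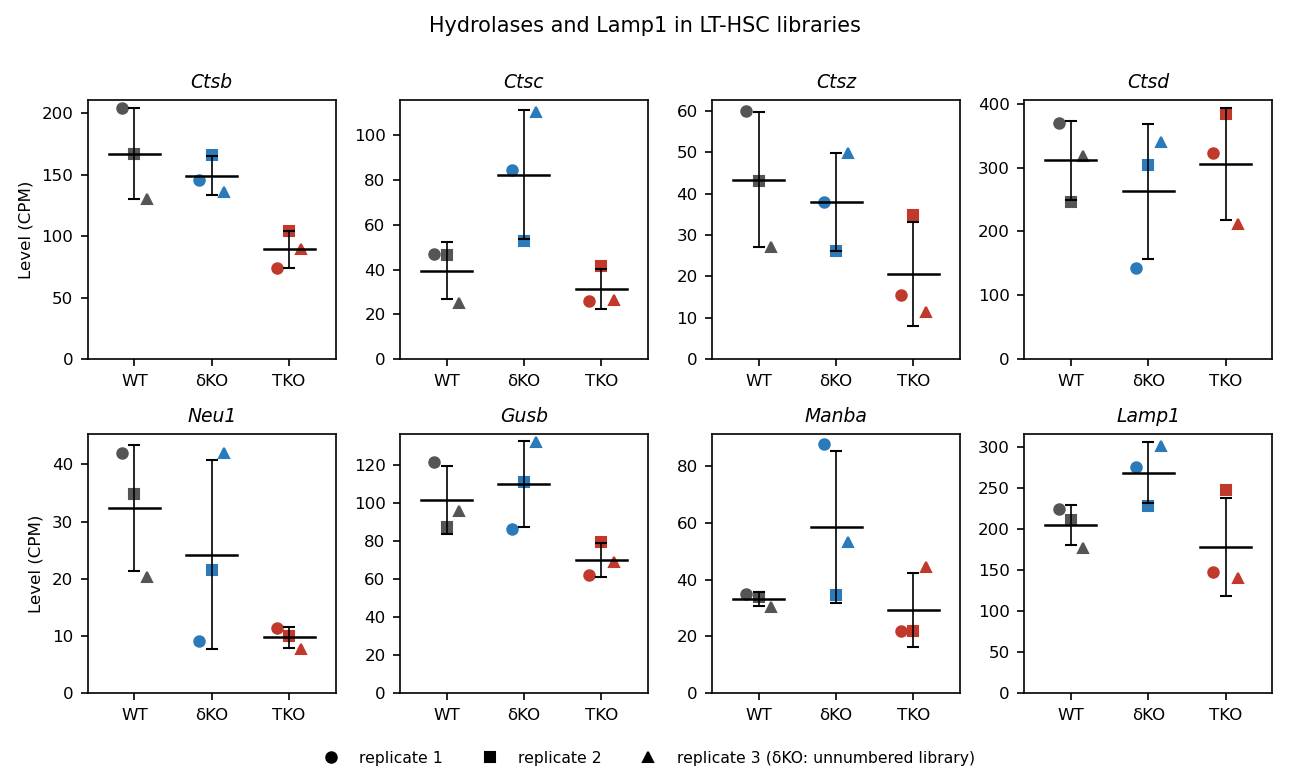
Level in CPM of 4 proteases, 3 glycosidases and Lamp1 in each library (points), with the mean (bar) and SD (error bars) of 3 libraries per genotype. TKO libraries lie below all controls for Ctsb and Gusb, overlap with one δKO library for Neu1, and overlap with both controls for Ctsd.

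Of the 13 glycosidases, which remove sugars from glycoproteins, glycolipids and glycosaminoglycans, 10 were lower in TKO than in δKO by sign and the median log2 fold change was −0.42. Neu1, the lysosomal sialidase, which removes terminal sialic acids and lies at chr17:34931253-34935953, was at 42.0, 34.9 and 20.3 CPM in WT, 9.21, 21.5 and 42.0 CPM in δKO and 11.4, 10.1 and 7.82 CPM in TKO. TKO libraries lay below all WT libraries, but δKO replicate 1 was among them. The log2 fold change was −1.73 ± 0.552 against WT (unadjusted p = 0.00897, adjusted p = 1.00) and −1.31 ± 0.546 against δKO (unadjusted p = 0.0343, adjusted p = 0.465). Without the unnumbered δKO library the latter was −0.66.

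Gusb, the beta-glucuronidase gene at chr5:129989011-130003049, was at 121, 87.4 and 95.4 CPM in WT, 86.5, 111 and 132 CPM in δKO and 62.0, 79.3 and 68.7 CPM in TKO. TKO libraries lay below all controls, with a log2 fold change of −0.65 ± 0.260 against δKO (unadjusted p = 0.0286, adjusted p = 0.465) and −0.54 ± 0.259 against WT (unadjusted p = 0.0622). Manba, the beta-mannosidase gene at chr3:135485611-135571404, was at 35.0, 33.9 and 30.4 CPM in WT, 87.4, 34.6 and 53.3 CPM in δKO and 21.8, 21.9 and 44.4 CPM in TKO. Here TKO replicate 3 overlapped with the controls. Its log2 fold change was −0.99 ± 0.414 against δKO (unadjusted p = 0.0342, adjusted p = 0.465) and −0.17 ± 0.410 against WT, and without δKO replicate 1 the former was −0.59.

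Hexa, the gene of the hexosaminidase alpha subunit and the highest glycosidase per kb, was at 75.4, 56.1 and 57.9 CPM in WT, 56.8, 68.9 and 62.1 CPM in δKO and 32.3, 73.1 and 35.0 CPM in TKO, with TKO replicate 2 among the controls. Its log2 fold change was −0.42 ± 0.344 against δKO. Gla, the alpha-galactosidase gene, was lower in all TKO libraries (13.8 to 23.3 CPM) than in all WT libraries (48.0 to 58.8 CPM), but δKO libraries ran from 6.82 to 113 CPM and the unadjusted p was 0.065 against WT. Idua was the only one of the 49 genes whose TKO libraries all lay above all WT libraries, at 19.6 to 21.8 against 12.5 to 19.5 CPM, with a log2 fold change of 0.30 ± 0.454. The other glycosidase genes, Aga, Fuca1, Gaa, Galc, Glb1, Man2b1 and Naglu, had no unadjusted p under 0.05, and their values against δKO lay between −0.44 for Glb1 and 1.02 for Aga.

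Of the 7 lipid genes, none had an unadjusted p under 0.05. By sign, 6 of them were lower in TKO than in δKO, from −0.57 for Lipa, the acid lipase, to −0.26 for Ppt1, and Asah1, the acid ceramidase, was at 0.12. Psap, the highest of them per kb, was at 137, 140.1 and 127 CPM in WT, 208, 138 and 212 CPM in δKO and 105, 172 and 120.2 CPM in TKO, so the genotypes overlapped. Its log2 fold change was −0.49 ± 0.263 against δKO (unadjusted p = 0.089) and −0.02 against WT, with a 95% interval from −0.60 to 0.55. The acid phosphatase gene Acp2 was at 43.1, 17.9 and 20.1 CPM in WT, 62.6, 16.9 and 22.01 CPM in δKO and 29.6, 37.2 and 30.6 CPM in TKO, and its log2 fold change was −0.06 ± 0.522 against δKO. The nuclease gene Dnase2a had a log2 fold change of 1.18 ± 0.721 against δKO (unadjusted p = 0.129).

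Of the 6 membrane proteins, Lamp1, at chr8:13159161-13175338 and the highest of them per kb, was at 225, 212 and 178 CPM in WT, 277, 229 and 302 CPM in δKO and 149, 248 and 141 CPM in TKO. The δKO libraries lay above all WT libraries, and TKO replicate 2 was within the δKO range. By edgeR the log2 fold change was −0.59 ± 0.263 against δKO (unadjusted p = 0.0458, adjusted p = 0.482) and −0.20 ± 0.262 against WT. Without TKO replicate 2 the value against δKO was −0.90, and with genes detected as a covariate it was −0.35. Lamp2 was lower in TKO (124 to 169 CPM) than in all WT libraries (187 to 208 CPM), with −0.46 ± 0.228 against WT (unadjusted p = 0.0681) and −0.50 ± 0.228 against δKO (unadjusted p = 0.0509). The remaining membrane protein genes, Cd63, a tetraspanin, Npc1, a cholesterol transporter, Scarb2, the receptor that carries beta-glucocerebrosidase, and Cln3, had values from −0.39 to 0.06 against δKO, and none reached an unadjusted p of 0.05.

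The TKO libraries of 9 genes lay entirely below the δKO libraries (Arsb, Ctsb, Ctsc, Ctsl, Gusb, Igf2r, Nagpa, Scarb2 and Sumf1), where 4.74% of all genes tested did, and those of 0 genes lay above (6.98% of all genes). Against WT the numbers were 12 below and 1 above, beside 7.47% and 6.88%. Without the genes displayed by the study for TKO against δKO, 4 of 42 genes lay below δKO and 6 of 42 below WT. Of the same 42 genes, 0 lay above δKO and 1 above WT. For Ctsb, Ctsl, Gusb, Igf2r, Nagpa and Sumf1, 6 of the 49 genes, TKO libraries lay below all 6 control libraries at once, where 1.69% of all genes did, and those of 0 genes lay above all 6 (2.12% of all genes). Of these, Ctsl alone was not among the genes displayed by the study. Between δKO and WT, 3 genes lay entirely above (Ctsc, Lamp1 and Scarb2) and 0 below, beside 4.13% and 7.39%.

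The genes spread more between δKO libraries than between libraries of the other genotypes. The median SD of log2 CPM over the 49 genes was 0.30 for WT libraries, 0.68 for δKO and 0.41 for TKO, and over the 10659 genes in the same range of levels it was 0.32, 0.72 and 0.41. Of the 49 genes, δKO replicate 1 held the highest value of 9 libraries for 13 and the lowest for 12, and the unnumbered δKO library the highest for 15 and the lowest for 5. Over all genes, δKO replicate 1 was highest for 23.7% and lowest for 27.1%, and the unnumbered library for 17.1% and 19.3%. TKO replicate 1 was lowest for 13 of the genes, beside 10.7% of all genes, and TKO replicate 3 for 8, beside 5.75%. The median of log2 CPM centred on each gene's mean was −0.37 in TKO replicate 1 and −0.31 in TKO replicate 3. It was 0.11 in TKO replicate 2, which lay within the δKO values of 0.03 to 0.37 and the WT values of −0.08 to 0.37. Over all genes it was 0.04, −0.02 and 0.07 in TKO replicates 1, 2 and 3. In δKO it was −0.23 to 0.07 and in WT 0.05 to 0.08. The neutrophil genes summed to 169.8, 3358 and 936 CPM in TKO replicates 1, 2 and 3. Their sum was 12845 CPM in WT replicate 1 (median 0.37), 285 in δKO replicate 1 (0.03) and 10696 in WT replicate 3 (−0.08). The part of neutrophil RNA in these medians was not tested.

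**Figure D5:**
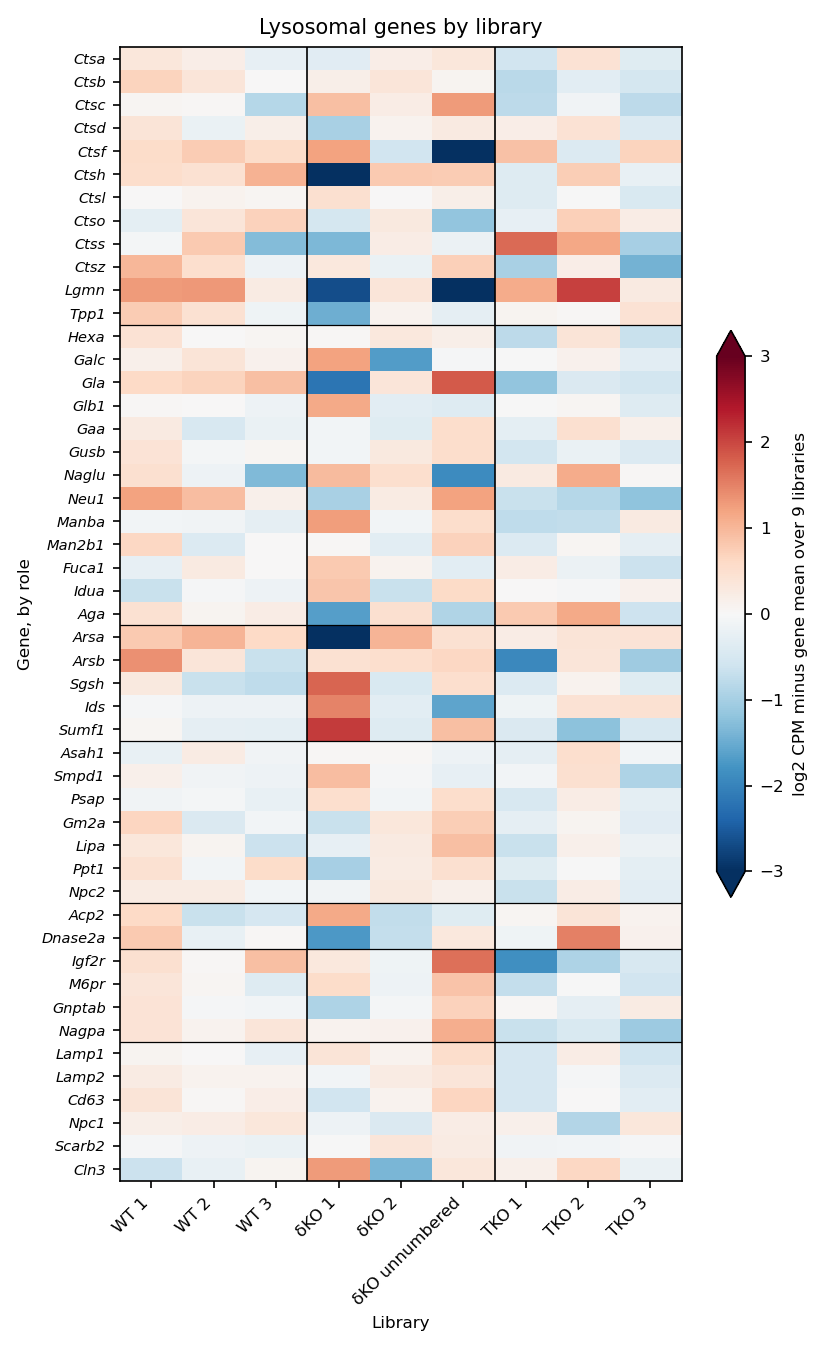
Log2 CPM of the 49 genes in each library minus the mean of the gene over 9 libraries (color), with genes grouped by role. TKO replicates 1 and 3 are mostly blue, TKO replicate 2 is mixed, and the deepest colors are in δKO replicate 1 and the unnumbered δKO library.

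Of 39 other lysosomal and sorting genes, 3 were lower in TKO than in δKO at an unadjusted p under 0.05 and 4 were higher, beside 5.56% and 4.6% of all genes. Those lower included Gnptg, the gamma subunit of the phosphotransferase, and Sort1, which encodes the alternative sorting receptor sortilin. Sort1 was at 305, 182 and 201 CPM in WT, 146, 157 and 366 CPM in δKO and 91.4, 107 and 117 CPM in TKO, with a log2 fold change of −1.09 ± 0.360 against δKO (unadjusted p = 0.0110, adjusted p = 0.465) and −1.13 ± 0.360 against WT (unadjusted p = 0.00905, adjusted p = 1.00). Its TKO libraries did not overlap with the controls. The 12 other sorting genes together, adaptor, GGA and retromer subunits among them, had a median of −0.33 against δKO, with 2 lower and 0 higher. The 13 other lysosomal enzymes had a median of 0.21, with Pla2g15, a lysosomal phospholipase, lower (−1.78 ± 0.554, unadjusted p = 0.00791, adjusted p = 0.465) and the proteases Ctse (1.38) and Scpep1 (1.53) higher. The 14 other membrane proteins had a median of −0.06, with Slc17a5, the sialic acid exporter, (1.85) and Cln8 (1.48) higher and 0 lower. Against WT, Sort1 alone of the 39 genes was lower and 0 were higher at that threshold, beside 2.5% and 1.68% of all genes. In δKO against WT, Pla2g15 was higher while Acp5 and Slc17a5 were lower, beside 3.65% and 3.36% of all genes. By DESeq2, Pla2g15 was called lower in TKO than in δKO on all 9 libraries (adjusted p = 0.0248) and on those groups alone, and Sort1 was called lower in TKO than in WT only with the fit restricted to those groups.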

How the data were processed

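RNA-seq libraries of sorted LT-HSCs from WT, δKO and TKO transplant recipients were analysed, 3 per genotype, as grouped by the labels. The labels give the molecule as polyA RNA, and the authors extracted total RNA and amplified cDNA from it with an Ovation kit. The submitters' processing notes name Trim Galore 0.3.7, FastQC 0.11.4, STAR 2.5.1b, DESeq2 and the build mm10, and the annotation and the strand used for counting are not given in the sources used here. The deposited counts are raw reads per gene, and the authors' normalized values, a signal equal to each count divided by 1 constant per library, were used only in an alternative. One δKO column carries a number that the labels do not, and it was used as a δKO library without a number, since columns were assigned by name. Its counts are a constant multiple (0.643) of the normalized column that carries number 3. Coordinates were taken from GENCODE M21 on GRCm38 by gene identifier.

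Counts were filtered with filterByExpr (minimum count 10, total 15), scaled with TMM factors and fitted with edgeR 4.0.16 in R 4.3.3, with all 9 libraries sharing 1 estimate of the spread (6 residual degrees of freedom before moderation). Calls required over 2-fold change and a p-value under 0.05 after Benjamini-Hochberg adjustment. DESeq2 1.42.0 and limma 3.58.1 on log2(value + 1) served as alternatives, beside other scalings, filters, covariates, a replicate block and each library left out in turn. The fitting step was tested on simulated data. CPM per kb was CPM divided by the length of all annotated exons of a gene. Libraries held 31300343 to 60386097 counts.

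The 49 genes and all other lists were chosen with earlier results of these data known. Of the 49 genes, values in every library were given for those with an unadjusted p under 0.05 by edgeR in any comparison, for those with an adjusted p under 0.05 by DESeq2 on all 9 libraries, and for the highest gene per kb of each role. Of the other lysosomal genes, those with an unadjusted p under 0.05 were named. Further genes given by value (Arsa, Ctsl, Gla, Gnptab, Idua, Ids, Lamp2, Lgmn and Sgsh among them) and the library values of Sort1 were picked after their values were seen. The labels do not say whether the libraries of a genotype came from separate mice. Where exons of 2 genes overlap, reads of one could be counted for the other, which bears most on Arsb, Ctsd, Dnase2a, Ctsl, Sgsh, Arsa and Ctsa, where 17.4% to 39.9% of exonic bases are shared.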

Additional observations from a re-analysis of the deposited data

How the results depend on the processing

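None of 17 gene results passed the adjusted threshold, so that 332 of 340 alternative values did not pass either says little of their stability. The other 8, all with DESeq2, had an adjusted p under 0.05, and 0 reversed in sign. Counts at an unadjusted p under 0.05, per direction, were added after seeing the data. Upper-quartile scaling moved the median of all genes to 0.08 in TKO against δKO and −0.10 in δKO against WT, and the normalized values in limma moved it to 0.09 and −0.12, from −0.06 and 0.05. The cause of the changes below was not tested.

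In TKO against δKO, 0 genes were called, 4 with DESeq2 on all 9 libraries but 0 with DESeq2 on the compared groups alone, and 10 passed at an unadjusted p under 0.05. Of these, the 10 lower genes became 2 with genes detected as a covariate, 5 with only the groups compared, 6 with upper-quartile factors, 3 without Ctsb, Gusb, Igf2r, Lamp1, Nagpa, Neu1 and Sumf1, and 4 to 13 with a library left out. The 0 higher genes became 1 with DESeq2 (all 9 libraries, or the compared groups alone), with genes detected as a covariate, with no filter and with limma, and 0 to 2 with a library left out. The median of −0.37 became −0.19 with genes detected as a covariate and −0.23 with upper-quartile factors, and ran from −0.54 to −0.29 with a library left out.

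In TKO against WT, 0 genes were called, 4 with DESeq2 on the groups compared, and 5 passed at an unadjusted p under 0.05. The 5 lower genes became 9 with DESeq2 or edgeR on only the groups compared, 1 without the same 7 genes, and 2 to 9 with a library left out, and the median of −0.22 ran from −0.38 to −0.14. In δKO against WT, 0 were called and 2 passed at an unadjusted p under 0.05. The 2 higher genes became 4 with DESeq2 on all 9 libraries, 0 with genes detected as a covariate, 1 with limma, with upper-quartile factors or without the same 7 genes, and 0 to 7 with a library left out. The 0 lower genes became 1 with DESeq2 on all 9 libraries, 2 with limma and 0 to 3 with a library left out. The median of 0.04 became −0.19 with genes detected as a covariate, −0.10 with upper-quartile factors and −0.028 with at least 10 counts in every library, and ran from −0.064 to 0.14 with a library left out.

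Libraries with the same replicate number did not deviate together (correlations over genes from −0.036 to 0.083, leaving out the unnumbered δKO library, which correlated at −0.037 with WT replicate 3 and −0.040 with TKO replicate 3), and none passed 0.1. The replicate block gave the unnumbered δKO library a level of its own, so its δKO values rest on replicates 1 and 2. An effect of blocking and one of leaving that library out cannot be told apart here. With the replicate block, the median in TKO against δKO was −0.088, with 4 lower and 2 higher genes at an unadjusted p under 0.05. In δKO against WT the median was −0.16, with 0 higher and 2 lower. No gene was called with the block. In TKO against δKO with the block, Neu1 was at −0.38, M6pr at −0.48, Nagpa at −0.77 and Ctsc at −0.92, and in δKO against WT Ctsc was at 0.64.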
